A study of Homo sapiens with 12 samples.

Results

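The genes of cholesterol and fatty acid synthesis were followed in 4 pancreatic cancer cell lines, as 34 named genes of the 58302 in the table of expression values. The 34 were taken by gene symbol from a list of the sterol regulatory element-binding protein (SREBP) pathway, by a rule that uses no measured value, though the list was drawn up with earlier results of these data known. They were grouped by role into 7 genes of the mevalonate arm, 3 of squalene and lanosterol synthesis, 8 of the steps after lanosterol, 5 regulators, 3 genes of sterol transport and 8 genes of fatty acid synthesis.

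BxPC-3 and CFPAC-1 are epithelial lines from human pancreatic ductal adenocarcinoma that are sensitive to gemcitabine (GEM), a deoxycytidine analog that blocks DNA synthesis. BxPC-3-GR and its counterpart CFPAC-1-GR are resistant lines that were derived from them by exposure to rising GEM concentrations, so that what is particular to a derived line cannot be told apart from resistance. Between the BxPC-3 and CFPAC-1 lines, the effects of line, donor and culture medium cannot be told apart. Total RNA of each line was sequenced in 3 replicates, 12 libraries in all. Nothing in the labels says that replicates came from separate cultures, so the p values measure only the spread between these libraries. The labels give BxPC-3-GR a mesenchymal morphology and the other lines an epithelial one. EPCAM and 5 other epithelial genes were present in every library, and the 5 mesenchymal markers were mixed in BxPC-3-GR. Between the libraries of BxPC-3 and BxPC-3-GR, CDH2 was higher in the resistant line (1.57 to 2.32 FPKM and 4.86 to 6.35 FPKM), as was FN1 (5.11 to 5.50 FPKM and 8.82 to 9.33 FPKM). SNAI2 was lower there (39.5 to 43.3 FPKM and 22.7 to 23.4 FPKM), as was VIM (5.51 to 7.25 FPKM and 0.686 to 0.891 FPKM). Their sum with ZEB1 was between 51.9 and 57.5 FPKM in BxPC-3 and between 37.4 and 39.5 FPKM in BxPC-3-GR, and ZEB1 reached at most 0.197 FPKM in any library. PTPRC, ADIPOQ and FABP4, markers of blood and fat cells, were at 0 in all 12 libraries. PLIN1, the other fat cell marker read, reached at most 0.123 FPKM. The fibroblast markers COL1A1, PDGFRB and COL1A2 reached at most 3.32, 0.779 and 0.0104 FPKM, and the hepatocyte markers ALB and CYP3A4 at most 0.0412 and 0.173 FPKM.

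Cells make cholesterol from acetyl-CoA by way of mevalonate, the isoprenoid farnesyl diphosphate, squalene and lanosterol. The transcription factors SREBF1 and SREBF2 are membrane proteins of the endoplasmic reticulum. When sterols are scarce, SCAP escorts them to the Golgi apparatus, where they are cut and released to the nucleus. INSIG1 and INSIG2 hold SCAP back when sterols are plentiful. SREBF2 acts mainly on cholesterol genes and the short form of SREBF1 on fatty acid genes. Oxysterols act in the other direction through liver X receptors, which raise the sterol exporters ABCA1 and ABCG1 and also SREBF1. Pancreatic cancer cells are known to depend on both imported and newly made lipid.

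SREBF2 is itself a known target of SREBPs, and its promoter was the only 1 of the members' promoters that held the sterol regulatory element searched here, so it is shown. RefSeq promoter windows, 300 bases each, matched 29 of the 34 genes with 39 windows. The letters TCACNCCAC, on either strand, were in 1.13% of 35116 windows and in 1 of the 39. The 250 bases before the RefSeq start of SREBF2, on the plus strand of GRCh38.p14 at chr22:41832855-41833104, are printed with the match, which begins 133 bases before the start, and with the only CCAAT or its reverse complement in capitals.

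SREBF2 promoter: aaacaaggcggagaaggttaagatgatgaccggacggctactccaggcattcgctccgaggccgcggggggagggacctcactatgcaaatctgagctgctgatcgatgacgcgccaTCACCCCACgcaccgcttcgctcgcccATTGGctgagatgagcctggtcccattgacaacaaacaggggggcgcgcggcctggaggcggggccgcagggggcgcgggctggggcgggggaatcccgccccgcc

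The match was followed, after 18 bases, by the NF-Y box CCAAT read on the other strand. CCAAT, on either strand, was in 34.6% of all windows and in 64.1% of the members' windows, belonging to 21 genes, among them HMGCS1, FDPS, SCD, INSIG1 and STARD4. The Sp1 box GGGCGG, on either strand, was in 45% of all windows and in 89.7% of the members' windows. A match describes letters in the window and no binding was measured.

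Values are FPKM, in which fragments are divided by gene length and library depth, so levels can be set beside each other between genes. The low values gave an implied depth of 12600000 to 25200000 fragments per library. Differences are log2 fold changes (log2FC) of FPKM + 1 between group means, tested with limma over every gene whose mean reached 1 FPKM. Rose and fell are used for a Benjamini-Hochberg adjusted p below 0.05, and significantly differentially expressed (SDE) for those that also passed an absolute log2FC of 1. For a single gene, an exact 2-sided permutation test between 3 and 3 libraries has a smallest p of 0.10.

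The 3 parental CFPAC-1 libraries stood apart from the other 9. Relative to the mean of all libraries, log2 levels correlated with the GC content of the gene across 12184 genes with a Spearman rho of 0.677 to 0.695 in these 3 libraries and of -0.468 to -0.314 in the other 9. Every comparison with parental CFPAC-1 carries this trend. The log2FC of CFPAC-1-GR against CFPAC-1 had a rho of -0.777 with GC content over 12030 genes and of -0.920 over the 33 members tested. For BxPC-3-GR against BxPC-3 the same rho was 0.0388 over 11685 genes and -0.0232 over 29 members. Genes are not independent replicates, and these values are descriptions. Therefore each CFPAC-1 result is given with its value after the log values were corrected by splines on GC content and gene length, and a comparison that leaves parental CFPAC-1 out follows at the end. What part GC content has in a change was not tested.

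**Figure D1:**
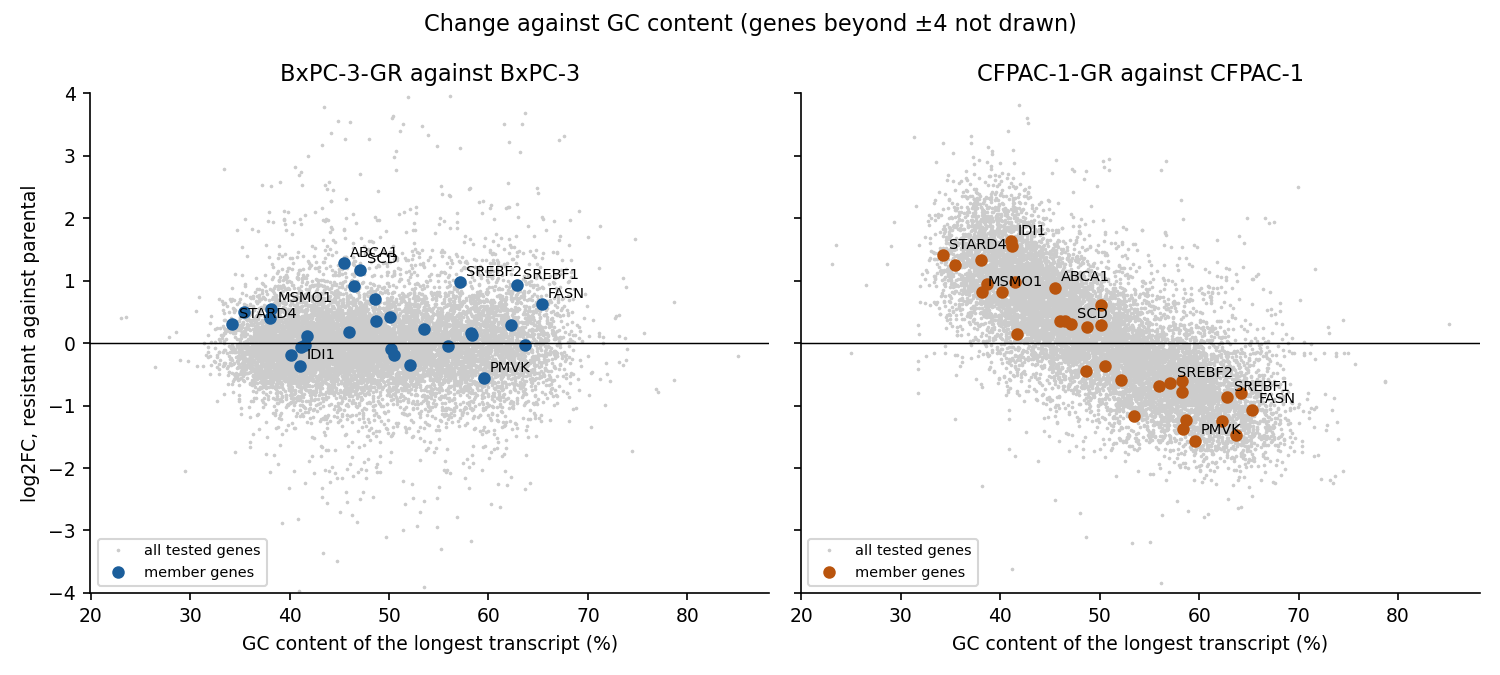
Each point is a gene, with the GC content of its longest transcript in percent on the x axis and its log2FC, resistant against parental, on the y axis, all tested genes in grey and the member genes in colour. In BxPC-3-GR the members are spread without a trend (rho of -0.0232), and in CFPAC-1-GR they run from STARD4 at low GC content down to PMVK and FASN at high GC content (rho of -0.920).

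In BxPC-3-GR, 4 of the 5 regulators (all but INSIG1), the enzymes that make and oxidise squalene, the sterol exporter ABCA1 and the desaturase SCD were higher than in BxPC-3, and most genes of the mevalonate arm did not pass the test. Of 29 members tested, 15 rose, 4 fell and 10 did not pass. Over all 11710 genes tested, 26.2% rose and 31.5% fell. Only SCD and ABCA1 were SDE, both up, against 4.14% of all genes SDE up and 3.62% SDE down. The median log2FC of the members was 0.23, beside -0.05 over all tested genes. LSS, TM7SF2, SC5D, ABCG1 and FADS2 were below the minimum level. In these bulk RNA values, fewer cells of a type and less RNA per cell cannot be told apart.

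Both SREBP genes were about 2.0-fold as abundant in BxPC-3-GR. SREBF1 (chromosome 17, 17810399 to 17837002, GRCh38) stood at 9.78, 10.1 and 11 FPKM in BxPC-3 and at 19.4, 19.7 and 22.7 FPKM in BxPC-3-GR. SREBF2 (chromosome 22, 41833079 to 41907308) stood at 14.7, 15.6 and 14.0 FPKM in BxPC-3 and at 30.6, 28.4 and 31.2 FPKM in BxPC-3-GR. For both genes the resistant libraries lay above all parental ones. The log2FC was 0.93 ± 0.079 (SE, n = 3) for SREBF1 and 0.98 ± 0.064 (SE, n = 3) for SREBF2, with limma adjusted p = 0.00017 and 7.1e-05. SCAP, the escort of both, stood at 6.76, 6.36 and 6.29 FPKM in BxPC-3 and at 8.01, 8.40 and 7.92 FPKM in BxPC-3-GR, with no overlap, and rose by a log2FC of 0.29.

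The INSIG genes varied more between libraries. INSIG1 stood at 8.20, 8.56 and 9.24 FPKM in BxPC-3 and at 10.8, 7.47 and 12.2 FPKM in BxPC-3-GR, where the groups overlapped and the change did not pass the test (log2FC 0.18, limma adjusted p = 0.38). Without BxPC-3-GR replicate 2, its lowest resistant library, INSIG1 passed with a log2FC of 0.37 (limma adjusted p = 0.0158). INSIG2 stood at 1.89, 1.59 and 1.90 FPKM in BxPC-3 and at 3.13, 2.04 and 3.83 FPKM in BxPC-3-GR. The INSIG2 groups did not overlap and it rose by a log2FC of 0.49 (limma adjusted p = 0.046), a call that was lost without any single library other than BxPC-3-GR replicate 2 (limma adjusted p of 0.0855 to 0.122).

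Of the squalene and lanosterol enzymes, both that could be tested rose. SQLE, the squalene epoxidase and a slow step of the pathway, stood at 8.68, 9.09 and 10.8 FPKM in BxPC-3 and at 19.6, 19.8 and 17.2 FPKM in BxPC-3-GR. The groups were far apart, and the log2FC was 0.92 ± 0.096 (SE, n = 3; limma adjusted p = 0.00042). FDFT1, the squalene synthase, rose from 4.38 ± 0.12 to 7.76 ± 0.58 FPKM (SD, n = 3), a log2FC of 0.70. LSS, which closes the ring to lanosterol, was at 0.730 FPKM in BxPC-3 and 0.946 FPKM in BxPC-3-GR and was not tested.

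The mevalonate arm that feeds them had no gene that rose and 2 of 7 that fell. PMVK, the phosphomevalonate kinase, stood at 8.95, 9.44 and 8.23 FPKM in BxPC-3 and at 5.68, 6.33 and 5.10 FPKM in BxPC-3-GR (log2FC -0.56, limma adjusted p = 0.0020). IDI1, the isopentenyl diphosphate isomerase, stood at 13.5, 14.4 and 15.3 FPKM in BxPC-3 and at 11.4, 11.3 and 10.3 FPKM in BxPC-3-GR (log2FC -0.36, limma adjusted p = 0.0048). All resistant libraries lay below all parental ones for both genes. ACAT2, the acetyl-CoA acetyltransferase, HMGCS1, the HMG-CoA synthase, MVK, MVD and FDPS lay between -0.20 and 0.16 in log2FC and did not pass. Of the exon bases of ACAT2, 26.5% are shared with SOD2 on the opposite strand. HMGCS1 stood at 19.0 ± 1.6 FPKM in BxPC-3 and 16.5 ± 1.8 FPKM in BxPC-3-GR (SD, n = 3).

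After lanosterol, MSMO1, the sterol C4 methyl oxidase, rose from 9.25 ± 0.41 to 14.1 ± 0.61 FPKM (SD, n = 3), a log2FC of 0.55. EBP, the sterol isomerase, stood at 4.52, 5.36 and 5.02 FPKM in BxPC-3 and at 5.78, 6.04 and 6.15 FPKM in BxPC-3-GR. It rose by a log2FC of 0.23 and NSDHL, a C4 sterol dehydrogenase, fell by 0.19, and each call was lost without any of 4 single libraries (limma adjusted p of 0.0526 to 0.0717 for EBP and of 0.055 to 0.0794 for NSDHL). CYP51A1, the lanosterol demethylase, HSD17B7 and DHCR7, which makes the last reduction to cholesterol, did not pass, with log2FC of -0.03, 0.11 and 0.12. DHCR7 stood at 10.8, 10.4 and 10.5 FPKM in BxPC-3 and at 14.8, 11.1 and 9.46 FPKM in BxPC-3-GR, where the groups overlapped. For CYP51A1, 79.4% of the exon bases are also annotated to AC000120.2 on the same strand, so its level is uncertain.

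ABCA1, which exports cholesterol to apolipoprotein A-I, had the largest log2FC of the 29 members tested in BxPC-3-GR. It stood at 1.52, 1.70 and 2.24 FPKM in BxPC-3 and at 5.50, 5.77 and 6.31 FPKM in BxPC-3-GR, 3.22-fold in the means. The groups were far apart (log2FC 1.29 ± 0.11, SE, n = 3; limma adjusted p = 0.00016). ABCG1, the other exporter of the list, was listed at 0.0548 to 0.0682 FPKM in BxPC-3 and at 0.170 to 0.232 FPKM in BxPC-3-GR, too low to be tested, the lowest value being about 6 fragments. STARD4, a carrier of cholesterol between membranes, stood at 2.29, 2.21 and 2.62 FPKM in BxPC-3 and at 2.92, 3.11 and 3.46 FPKM in BxPC-3-GR, with no overlap, and rose by a log2FC of 0.31.

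Fatty acid synthesis had 5 genes of 7 tested that rose. SCD, which puts the first double bond into stearate and palmitate, was the most abundant member in every line. It stood at 129, 133 and 145 FPKM in BxPC-3 and at 303, 302 and 319 FPKM in BxPC-3-GR, 2.27-fold in the means (log2FC 1.18 ± 0.062, SE, n = 3; limma adjusted p = 3.2e-05). FASN, the fatty acid synthase, stood at 37.3, 36.8 and 34.4 FPKM in BxPC-3 and at 55.7, 58.8 and 54.6 FPKM in BxPC-3-GR (log2FC 0.63, limma adjusted p = 0.00024). For both, the resistant libraries were all higher.

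ACSL3, which activates long-chain fatty acids, stood at 23.1, 19.3 and 23.6 FPKM in BxPC-3 and at 29.3, 28.6 and 30.3 FPKM in BxPC-3-GR and rose by a log2FC of 0.41. ACACA, the acetyl-CoA carboxylase, rose by a log2FC of 0.35 and FADS1, the delta-5 desaturase, by 0.41. ACLY, which supplies cytosolic acetyl-CoA from citrate, went the other way, from 24.7 ± 1.1 to 19.3 ± 1.2 FPKM (SD, n = 3), a log2FC of -0.34. ELOVL6, which lengthens palmitate, stood at 8.34, 8.03 and 8.71 FPKM in BxPC-3 and at 8.14, 8.0 and 7.77 FPKM in BxPC-3-GR and did not pass. FADS2 was at 0.322, 0.322 and 0.362 FPKM in BxPC-3 and at 0.383, 0.404 and 0.454 FPKM in BxPC-3-GR and was not tested. The correction left the same 15 genes risen, and of the 4 that fell it took away NSDHL (limma adjusted p = 0.093), beside 28.0% of all genes up and 30.9% down.

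**Figure D2:**
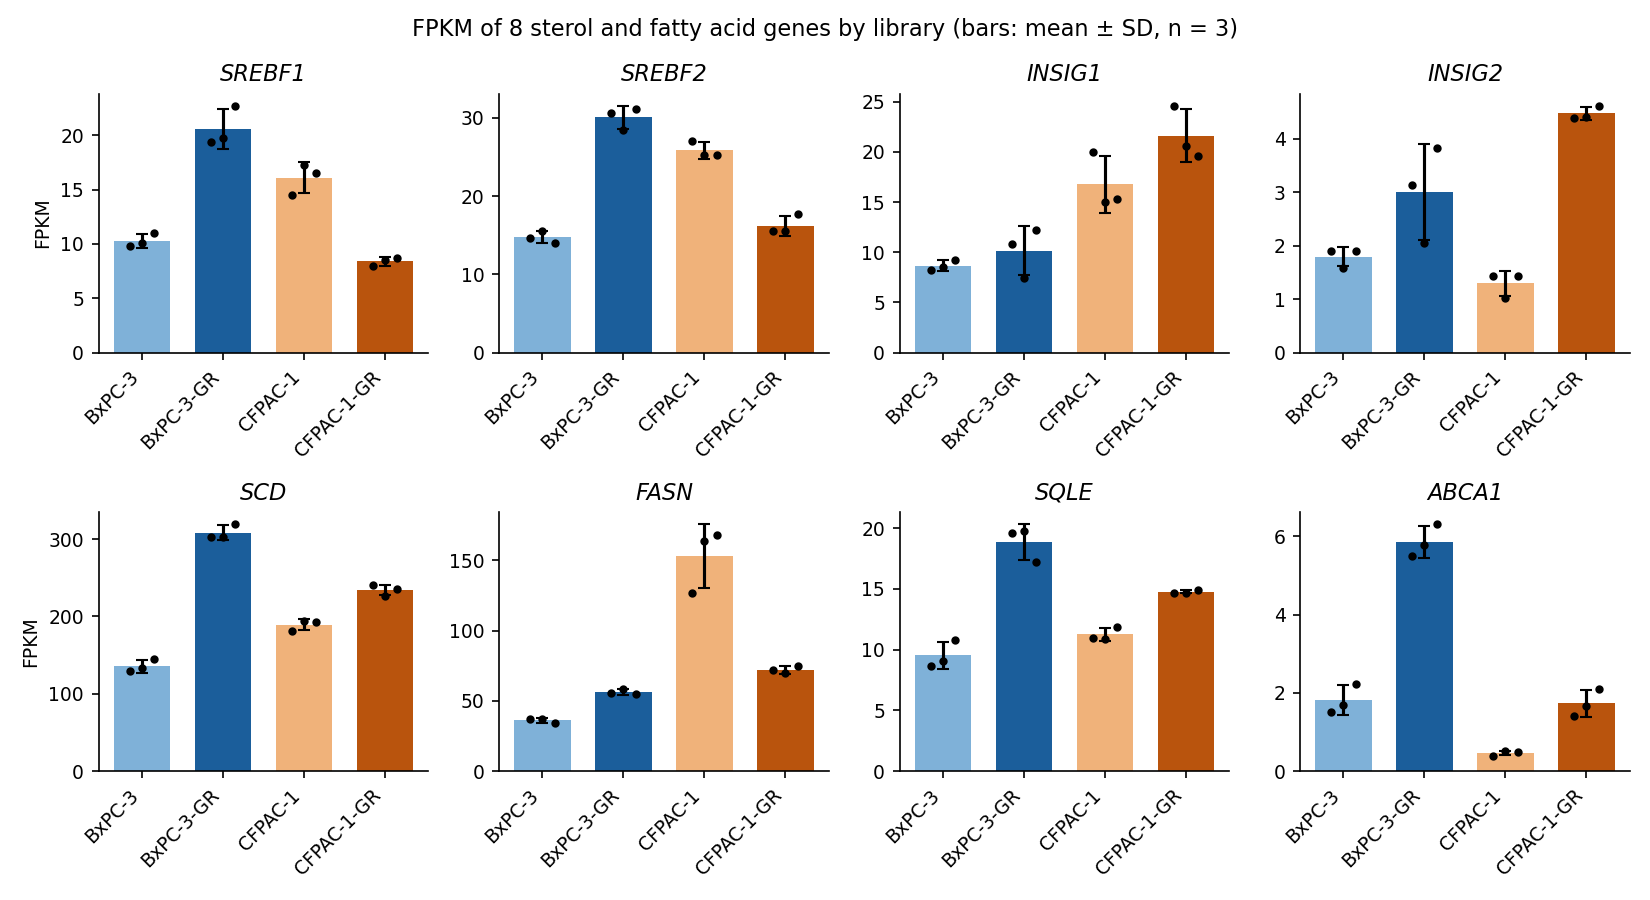
FPKM of SREBF1, SREBF2, INSIG1, INSIG2, SCD, FASN, SQLE and ABCA1, with 1 dot per library, bars for the mean and whiskers for the SD (n = 3 per line). SREBF1 and SREBF2 are higher in BxPC-3-GR than in BxPC-3 and lower in CFPAC-1-GR than in CFPAC-1, and SCD and ABCA1 are higher in both resistant lines than in their parents.

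In CFPAC-1-GR, the members split in 2 directions as deposited, and most increases were not kept by the correction. As deposited, 15 of 33 tested rose and 16 fell, among all 12051 genes 44.6% and 34.9%. There were 5 members SDE up and 7 SDE down, where 20.5% and 11.7% of all genes were called. The median log2FC of the members was 0.15, beside 0.13 over all tested genes. After the correction 4 members rose, IDI1, ELOVL6, FADS1 and ACAT2, 16 fell, none was SDE in either direction, and the median was -0.20. Of all 12030 genes, 29.6% rose and 30.6% fell after the correction, with 4.69% SDE up and 3.97% SDE down. STARD4, ABCA1 and SC5D had a mean below 1 FPKM in CFPAC-1 and were tested only because of their level in CFPAC-1-GR. Under median-of-ratios scaling the median of all genes moved from 0.127 to 0.000844.

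SREBF1 and SREBF2 were both lower. SREBF1 stood at 14.5, 17.3 and 16.5 FPKM in CFPAC-1 and at 7.95, 8.54 and 8.73 FPKM in CFPAC-1-GR. SREBF2 stood at 27.1, 25.3 and 25.2 FPKM in CFPAC-1 and at 15.5, 15.5 and 17.7 FPKM in CFPAC-1-GR. All resistant libraries lay below the parental ones. The log2FC was -0.86 ± 0.085 for SREBF1 and -0.64 ± 0.077 for SREBF2 (SE, n = 3), with limma adjusted p = 7.7e-05 and 0.00021. After the correction these were -0.20 (limma adjusted p = 0.034) and -0.25 (limma adjusted p = 0.017).

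SCAP stood at 13.3, 12.9 and 13.2 FPKM in CFPAC-1 and at 4.48, 5.33 and 5.09 FPKM in CFPAC-1-GR, with no overlap (log2FC -1.25, corrected -0.54, limma adjusted p = 0.00056 after correction). INSIG2 stood at 1.44, 1.03 and 1.43 FPKM in CFPAC-1 and at 4.39, 4.41 and 4.61 FPKM in CFPAC-1-GR, also apart. Its log2FC of 1.25 became 0.07 and did not pass (limma adjusted p = 0.60). INSIG1 stood at 20.0, 15 and 15.3 FPKM in CFPAC-1 and at 24.6, 20.6 and 19.6 FPKM in CFPAC-1-GR, where the groups overlapped. It rose narrowly (log2FC 0.35, limma adjusted p = 0.047), a call lost without any of 4 single libraries (CFPAC-1 replicates 2 and 3, CFPAC-1-GR replicates 1 and 2) and after the correction (log2FC -0.06).

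In the mevalonate arm IDI1, ACAT2 and HMGCS1 rose as deposited and the other 4 genes fell. ACAT2 was at 11.9 FPKM in CFPAC-1 and 14.9 FPKM in CFPAC-1-GR (log2FC 0.30, corrected 0.27, limma adjusted p = 0.017 and 0.036). Its call as deposited was lost without CFPAC-1 replicate 2 or 3 (limma adjusted p = 0.0529 and 0.0541). IDI1 stood at 9.55, 10.2 and 8.40 FPKM in CFPAC-1 and at 38.0, 29.5 and 27 FPKM in CFPAC-1-GR, 3.35-fold in the means. Its log2FC was 1.63 ± 0.14 (SE, n = 3; limma adjusted p = 3.8e-05) and 0.66 after the correction (limma adjusted p = 0.0035). Of its exon bases, 14.8% are shared with the antisense gene IDI2-AS1.

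The kinase and decarboxylase steps before it were lower. PMVK stood at 106, 92.7 and 89.4 FPKM in CFPAC-1 and at 30.9, 32.3 and 32.3 FPKM in CFPAC-1-GR (log2FC -1.56, corrected -0.65). MVD, the mevalonate diphosphate decarboxylase, stood at 13.5, 16.9 and 13.0 FPKM in CFPAC-1 and at 3.78, 5.32 and 4.63 FPKM in CFPAC-1-GR (log2FC -1.47, corrected -0.64), and in BxPC-3 it was at 3.46, 3.27 and 2.97 FPKM and in BxPC-3-GR at 2.86, 3.41 and 3.15 FPKM. The CFPAC-1 groups did not overlap for either, and both still fell after the correction (limma adjusted p = 0.00036 and 0.0037). FDPS, the farnesyl diphosphate synthase, also fell under both (log2FC -0.69, corrected -0.19). HMGCS1 rose as deposited from 5.66 ± 0.95 to 10.7 ± 1.3 FPKM (SD, n = 3) and did not pass after the correction (log2FC 0.82 and -0.25), and MVK fell only as deposited (-0.60 and -0.09).

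FDFT1 fell from 8.92 ± 0.66 to 6.26 ± 0.53 FPKM (SD, n = 3), with a log2FC of -0.45 that became -0.68 after the correction. SQLE stood at 11, 10.9 and 11.9 FPKM in CFPAC-1 and at 14.7, 14.7 and 14.9 FPKM in CFPAC-1-GR. All resistant libraries were higher, but the log2FC of 0.36 became -0.03 and did not pass. LSS fell under both (-0.79 and -0.30).

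After lanosterol, DHCR7 and EBP were SDE down as deposited. DHCR7 stood at 37.0, 33 and 29.4 FPKM in CFPAC-1 and at 11.8, 12.2 and 12.2 FPKM in CFPAC-1-GR (log2FC -1.38, corrected -0.74, limma adjusted p = 0.00051 after correction). EBP stood at 21.1, 23.4 and 17.9 FPKM in CFPAC-1 and at 8.28, 9.19 and 8.56 FPKM in CFPAC-1-GR (log2FC -1.17, corrected -0.77, limma adjusted p = 0.00091 after correction). Both were apart between the groups. HSD17B7, a 3-ketosteroid reductase, had a log2FC of 0.15 that did not pass as deposited and -0.80 (limma adjusted p = 0.00031) after the correction.

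MSMO1 rose as deposited, from 14.4 ± 0.21 to 26.4 ± 3.2 FPKM (SD, n = 3), and after the correction fell by 0.23 (limma adjusted p = 0.023). NSDHL fell under both (-0.36 and -0.19). CYP51A1 and SC5D, the lathosterol desaturase, rose only as deposited (log2FC 0.98 and 0.94, corrected 0.10 and -0.26). TM7SF2, a sterol C14 reductase, fell only as deposited (-0.80, corrected 0.13).

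Both transport genes that were tested rose as deposited and did not pass after the correction. STARD4 stood at 0.653, 0.716 and 0.716 FPKM in CFPAC-1 and at 4.25, 3.07 and 3.27 FPKM in CFPAC-1-GR (log2FC 1.41, corrected 0.12). ABCA1 stood at 0.396, 0.504 and 0.496 FPKM in CFPAC-1 and at 1.41, 1.67 and 2.11 FPKM in CFPAC-1-GR (log2FC 0.89, corrected 0.12). Neither overlapped between the groups. ABCG1 was listed at 0.824 to 0.954 FPKM in CFPAC-1 and at 0.319 to 0.817 FPKM in CFPAC-1-GR and was not tested.

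Fatty acid synthesis had members in each direction. FASN stood at 127, 164 and 168 FPKM in CFPAC-1 and at 71.8, 69.6 and 74.9 FPKM in CFPAC-1-GR, below all parental libraries. Its log2FC was -1.07 ± 0.12 (SE, n = 3; limma adjusted p = 0.00014), and -0.40 after the correction (limma adjusted p = 0.011). FADS2, the delta-6 desaturase, stood at 36.5, 37.3 and 35.8 FPKM in CFPAC-1 and at 15.5, 14.4 and 15.3 FPKM in CFPAC-1-GR (log2FC -1.22). After the correction it was the member with the lowest log2FC, -0.83 (limma adjusted p = 9.6e-05).

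ACLY fell under both (log2FC -0.59, corrected -0.49). ELOVL6 stood at 1.01, 1.05 and 1.18 FPKM in CFPAC-1 and at 5.40, 4.89 and 5.13 FPKM in CFPAC-1-GR, 4.76-fold in the means. Its log2FC was 1.56 ± 0.069 (SE, n = 3), and 0.45 after the correction (limma adjusted p = 0.00081). FADS1 rose under both as well (0.61 and 0.34). FADS1 and FADS2 lie on opposite strands and share 490 exon bases, and whether counting used strand is not given in the sources used here.

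SCD stood at 181, 194 and 193 FPKM in CFPAC-1 and at 240, 227 and 236 FPKM in CFPAC-1-GR, apart but only 1.24-fold different in the means (log2FC 0.31, corrected -0.08, not passed). ACSL3 stood at 11.6, 13.2 and 13.0 FPKM in CFPAC-1 and at 35.8, 30.6 and 33.1 FPKM in CFPAC-1-GR, far apart (log2FC 1.33), and was at 0.03 after the correction. ACACA did not pass with or without the correction (0.26 and -0.20).

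**Figure D3:**
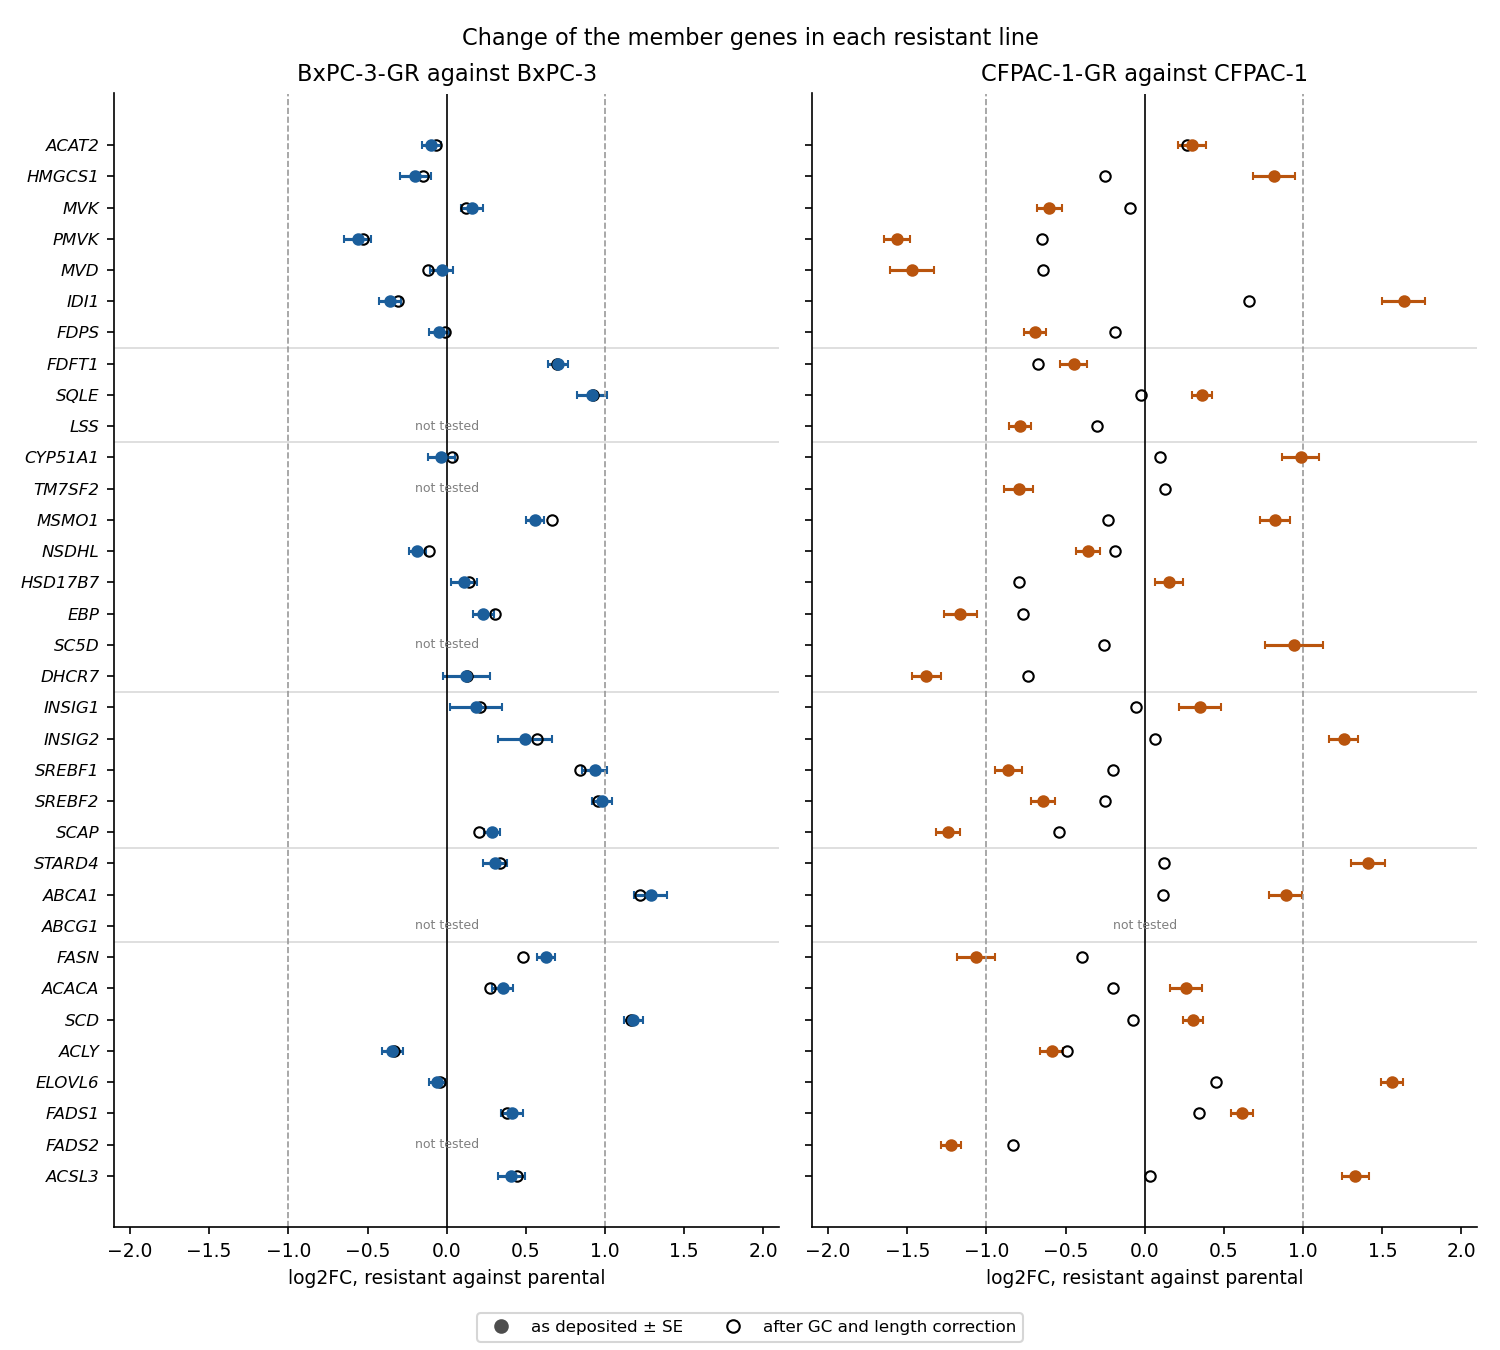
Log2FC of every member in each resistant line (left BxPC-3-GR, right CFPAC-1-GR) against its parent, with filled points and SE bars as deposited, open points after the correction, dashed lines at -1 and 1, and roles separated by grey lines. Open and filled points lie close together on the left, and on the right all open points lie between -0.83 and 0.66.

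The resistant-against-parental comparisons share no libraries, so the members can be set side by side. Of the 29 members tested in both lines, 8 (27.6%) rose in both as deposited, SQLE, MSMO1, INSIG2, STARD4, ABCA1, SCD, FADS1 and ACSL3, where 11.9% of the 10393 genes tested in both did. Of these 8, FADS1 rose in both also after the correction. PMVK, NSDHL and ACLY fell in both (10.3%, all genes 11.3%), PMVK and ACLY also after the correction. FDFT1, EBP, SREBF1, SREBF2, SCAP and FASN went up in the first line and down in the other (20.7%, all genes 9.92%), and each of the 6 kept both calls after the correction. IDI1 alone had the opposite pair of calls, down in the first and up in the other (3.45%, all genes 15.5%), with and without the correction. The shares of all genes in this paragraph are of calls as deposited. How many of all genes keep such calls after the correction was not counted.

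Whether the change differed between the lines was tested with an interaction term over all 12 libraries, the change in CFPAC-1 minus the change in BxPC-3. It shares its libraries with the comparisons above. FADS2, TM7SF2, LSS and SC5D had means below 1 FPKM in BxPC-3 and in BxPC-3-GR and entered it only through the CFPAC-1 lines. Of 33 members tested, 5 were SDE up and 11 SDE down, where 23.6% and 14.4% of all 12210 genes were. After the correction 1 was SDE up and 6 were SDE down, beside 9.31% and 9.10% of all genes. SREBF2 and SREBF1 were among those kept, with differences of -1.62 and -1.80 as deposited and -1.19 and -1.02 after the correction (limma adjusted p = 1.2e-06 and 1.7e-05). FDFT1 differed by -1.15 and -1.38, and EBP by -1.40 and -1.06. SCD and ABCA1 passed an absolute difference of 1 only after the correction (-0.87 and -1.24 for SCD, -0.40 and -1.09 for ABCA1). IDI1 was the 1 SDE up after the correction, at 1.004 (1.99 as deposited, limma adjusted p = 0.00012 after correction). SCAP and FASN differed by -1.53 and -1.69 as deposited, and by -0.73 and -0.85 after it.

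Between the parental lines, CFPAC-1 had more mRNA of PMVK, FASN, ACLY and FDPS and far more of FADS2. Line, donor and culture medium cannot be told apart here or between the resistant lines. Of 32 members tested, 21 were higher and 10 lower in CFPAC-1, beside 39.4% and 44.8% of all genes. There were 10 SDE up and 3 SDE down, where 19.8% and 24.7% of 11842 genes were called, and 10 and 1 after the correction, where 13.5% and 13.1% were. FADS2, LSS and TM7SF2 had a mean below 1 FPKM in BxPC-3, and STARD4 and ABCA1 in CFPAC-1, so these were tested only because of the other line. The rho with GC content was 0.628 over all genes and 0.788 over the members. FADS2 was at 0.336 ± 0.023 FPKM in BxPC-3 and at 36.5 ± 0.76 FPKM in CFPAC-1 (SD, n = 3), 109-fold in the means (log2FC 4.81, corrected 4.33). PMVK was at 8.87 ± 0.61 and 96.2 ± 9.0 FPKM (log2FC 3.30, corrected 2.24). FASN was at 36.2 ± 1.5 and 153 ± 23 FPKM (2.04 and 1.30), ACLY at 24.7 ± 1.1 and 69.9 ± 2.0 FPKM (1.46 and 1.21), and FDPS at 8.38 ± 0.62 and 31.3 ± 1.2 FPKM (1.79 and 1.11). ELOVL6 was lower in CFPAC-1 under both, at 1.08 against 8.36 FPKM (-2.17 and -1.03). HMGCS1 and CYP51A1, SDE down as deposited (-1.59 and -1.04), were at -0.53 and -0.19 after the correction.

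The resistant lines compared with each other leave out parental CFPAC-1, and this comparison was added after the GC trend was seen. Its log2FC had a rho with GC content of -0.0189 over 12302 genes and of -0.0147 over 32 members. Compared with BxPC-3-GR, CFPAC-1-GR had 7 members SDE up, FADS2, PMVK, IDI1, ACLY, FDPS, FADS1 and INSIG1, and 2 SDE down, ABCA1 and SREBF1, where 10.3% and 6.80% of 12330 genes were called. FADS2 again had the largest difference, 0.414 ± 0.036 against 15.1 ± 0.59 FPKM (SD, n = 3; log2FC 3.51, limma adjusted p = 1.2e-07). PMVK followed with a log2FC of 2.29 (limma adjusted p = 1.4e-06) and IDI1 with 1.43 (limma adjusted p = 9.8e-05). ACLY and FDPS were at 1.22 and 1.15, and FADS1 at 1.12. SREBF1 was lower in CFPAC-1-GR by a log2FC of -1.20 and SREBF2 by -0.85 (limma adjusted p = 2.4e-05 and 9.6e-05). ABCA1 was lower by -1.34, SCAP by -0.61 and SCD by -0.39. FASN, with a log2FC of 2.04 as deposited between the parental lines, was at 0.35 between the resistant ones. With the correction these were 1.30 and 0.45. EBP, MVD and DHCR7 were at 0.47, 0.42 and 0.05 between the resistant lines as deposited. After the correction FDPS and INSIG1 were below a log2FC of 1 (0.98 and 0.88) and the other 7 remained SDE, where 8.80% of all genes were SDE up and 8.32% SDE down. FADS2 and SC5D had a mean below 1 FPKM in BxPC-3-GR, as did LSS, so these were tested only because of their level in CFPAC-1-GR.

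**Figure D4:**
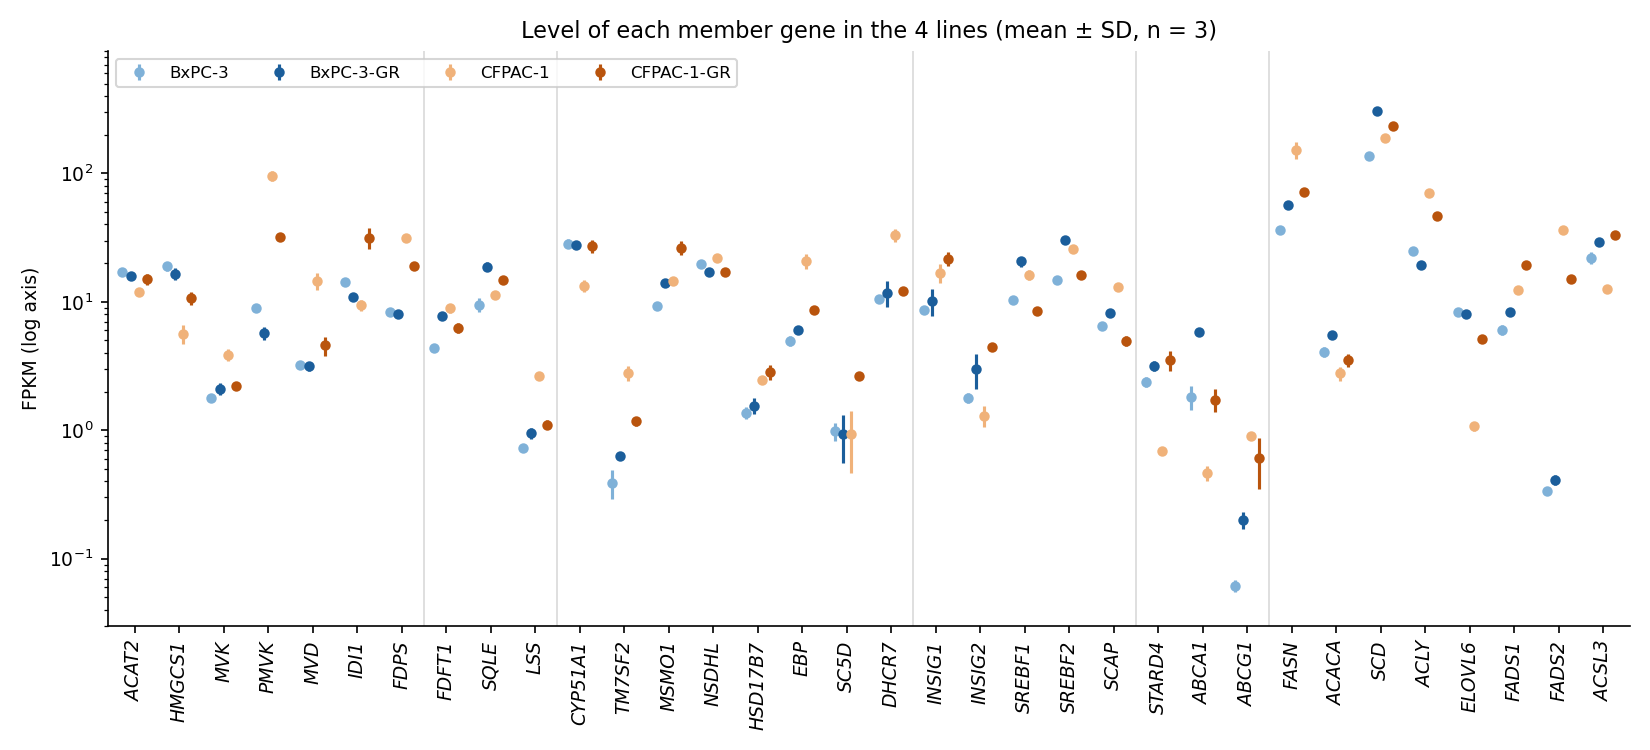
Mean FPKM and SD (n = 3) of each member in the 4 lines, on a log axis, in order of role with grey lines between roles. SCD is the highest member in all lines, FADS2 lies near 0.336 FPKM in BxPC-3 and 0.414 FPKM in BxPC-3-GR against 36.5 and 15.1 FPKM in the CFPAC-1 lines, and ABCG1 is the lowest member in the BxPC-3 lines.

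Other genes of lipid metabolism were read from 6 lists, whose counts stand beside the 26.2% of all genes that rose and 31.5% that fell in BxPC-3-GR. In BxPC-3-GR, glycerolipid synthesis and lipid droplet genes had 9 of 16 tested that rose and 3 that fell (median log2FC 0.36). PNPLA2, the triglyceride lipase, rose by 0.91 and MGLL, the monoglyceride lipase, fell by 1.99, from 6.09 ± 0.24 to 0.783 ± 0.092 FPKM (SD, n = 3). Fatty acid supply, elongation and activation had 9 of 17 that rose and 4 that fell (median 0.26). FADS3 was at 0.91 and ACSL5, a long-chain acyl-CoA synthetase, at -1.19. MGLL had a mean below 1 FPKM in BxPC-3-GR and FADS3 in BxPC-3 (0.950 FPKM), so each was tested only because of the other line. Of 20 fatty acid oxidation genes, 5 rose and 1 fell, with ACADS at 0.60 and ETFB at -0.65.

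Of 13 other sterol and isoprenoid enzymes, 4 rose and 5 fell in BxPC-3-GR, with FNTA, a subunit of the farnesyltransferase, at 0.36. The list of SREBP processing and sterol sensing had 3 of 13 that rose and 3 that fell, with RNF139 at 0.86 and LAMTOR1 at -0.59. Oxysterol receptors, their targets and sterol ester genes had 2 of 9 that rose and 4 that fell. MYLIP, a known target of liver X receptors, was the highest at 0.92 and NCEH1, a cholesterol ester hydrolase, the lowest at -0.78.

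In CFPAC-1-GR the counts of the lists also changed with the correction, beside 44.6% of all genes up and 34.9% down as deposited and 29.6% and 30.6% after it. Fatty acid oxidation had 7 of 19 that rose and 7 that fell as deposited, and none and 11 after the correction, with ACADS at -1.94 and -0.94 after it and ACADM at 0.88 and -0.13. The other sterol and isoprenoid enzymes went from 8 of 13 that rose and 2 that fell to 2 and 3, with NUS1, a subunit of the dolichol-forming prenyltransferase, at 1.53 and 0.35 and ERG28 at -0.39 and -0.42. Supply, elongation and activation went from 8 of 18 and 6 to 5 and 8. HACD2, a dehydratase of fatty acid elongation, stayed SDE up (log2FC 2.14, corrected 1.07) and SLC25A1, the citrate carrier, fell under both (-1.69 and -0.64).

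Glycerolipid synthesis and lipid droplet genes had 2 of 16 that rose and 5 that fell in CFPAC-1-GR, and 4 and 8 after the correction. GPAM was at 1.48 and 0.27 and AGPAT2 at -1.98 and -0.90. GPAM had a mean of 0.978 FPKM in CFPAC-1 and was tested only because of its level in CFPAC-1-GR. SREBP processing and sterol sensing had 6 of 13 and 5, then 1 and 7. There MBTPS2, the site-2 protease that cuts SREBPs, was at 1.36 and did not pass after the correction (-0.05), and LAMTOR1 fell under both (-1.28 and -0.73). Oxysterol receptors, their targets and sterol ester genes had 5 of 10 and 5, then 1 and 5, with NR1H2, a liver X receptor, at -1.24 and -0.44, and SOAT1, which esterifies cholesterol, at 1.02 and -0.17.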

How the data were processed

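RNA of 4 lines with 3 replicates each was sequenced, and 58302 genes have FPKM values in the table that the authors deposited, with gene length and library depth already divided out. The study's methods name GRCh38 with an Ensembl annotation. The submitters' processing notes name Trimmomatic 0.27, FastQC 0.10.1 and TopHat2 2.0.8, with both hg19 and GRCh38 as builds. The counting program and its use of strand are not given in the sources used here. In GENCODE 29, 58039 of the genes were found and 56647 had the same start and end, so positions are GRCh38. Exon length is of joined exons and GC content of the longest transcript.

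The implied depth came from the spacing of low values, of which 54.9% to 66.6% per library lay within 0.05 of a whole number of fragments. Spearman correlations within a group lay between 0.917 and 0.925. The groups were tested with limma 3.58.1 in R 4.3.3 (lmFit, eBayes) on log2(FPKM + 1), over genes whose mean reached 1 FPKM, with Benjamini-Hochberg adjustment over all of them. This scale understates the changes of low genes. Promoters came from RefSeq (GRCh38.p14). The procedure was tested on simulated data. Figures were drawn with matplotlib 3.10.9 in Python 3.11.15.

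The members and lists were chosen with earlier results of these data known. All members are named. Values of every library are given for SREBF1, SREBF2, INSIG1, INSIG2, SCD, FASN, ABCA1, each member SDE in a resistant line and, where a role had none, its most abundant member. Of each list the highest and the lowest gene that passed is named, except 1 gene that is not reported here. Alternatives were a pseudocount of 0.1, no filter, the replicate block, splines with 5 degrees of freedom on GC content and length, 2 other scalings, all 12 libraries in 1 fit and each library left out. The comparison of the resistant lines was added after the data were seen.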

Additional observations from a re-analysis of the deposited data

Results flagged for a closer look

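The resistant-against-parental change differed between the lines, by the interaction term and by more than 1 on the log2 scale, for 16 of 33 members tested. Of these, 5 were up and 11 down, beside 23.6% and 14.4% of all 12210 genes. Each difference is the log2FC in CFPAC-1 minus that in BxPC-3, as deposited. It was positive for IDI1 (1.99), ELOVL6 (1.62), STARD4 (1.10), CYP51A1 (1.02) and HMGCS1 (1.01). It was negative for SREBF1 (-1.80), FASN (-1.69), SREBF2 (-1.62), SCAP (-1.53), DHCR7 (-1.5), MVD (-1.44), EBP (-1.40), FADS2 (-1.31), FDFT1 (-1.15), TM7SF2 (-1.02) and PMVK (-1.002). With GC content and length corrected for, the difference was -0.17 for STARD4, 0.10 for CYP51A1, -0.06 for HMGCS1, -0.02 for TM7SF2 and -0.09 for PMVK. None of these passed the test, and the other 11 still passed in the same direction. Of all genes, 31.6% passed upward and 31.7% downward after the correction. FADS2 and TM7SF2 were below 1 FPKM in BxPC-3 and BxPC-3-GR, were not tested there and entered only through the CFPAC-1 lines.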

How the results depend on the processing

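At the implied depths the lowest value of ABCG1 in BxPC-3 was about 6 fragments and that of TM7SF2 about 19. The correction for GC content and length moved more results of CFPAC-1 than any other setting. Beside 5 members SDE up and 7 SDE down in CFPAC-1-GR as deposited, the correction gave 0 and 0, also with the replicate block. A pseudocount of 0.1 gave 8 up. Of all 12051 genes, 2473 were SDE up as deposited and 3396 with this pseudocount. With the correction, 4.69% of all genes were SDE up and 3.97% SDE down, beside 20.5% and 11.7% as deposited. For CFPAC-1 against BxPC-3, 3 SDE down became 1 with the correction, alone or with the replicate block, and 5 with a pseudocount of 0.1. All genes SDE down went from 2924 of 11842 to 1551 of 11821 with the correction and to 3584 with the pseudocount. The resistant libraries in place of the parental ones gave 7 up and 2 down, beside 10.3% and 6.80% of all genes. For the interaction, 5 SDE up became 1 with the correction, alone or with the block, 2 with median-of-ratios and 3 with upper-quartile scaling. There, 11 SDE down became 6 with the correction. Of all 12210 genes, 2885 were SDE up as deposited, 2162 with median-of-ratios and 2770 with upper-quartile scaling. With the correction, 9.31% of all genes were SDE up and 9.10% SDE down, beside 23.6% and 14.4% as deposited. With 1 library left out, SDE counts ranged from 2 to 3 up and stayed at 0 down in BxPC-3-GR, from 5 to 7 up and 6 to 7 down in CFPAC-1-GR, stayed at 10 up and ranged from 2 to 5 down between the parents (5 without BxPC-3 replicate 1), and from 2 to 6 up (2 without CFPAC-1-GR replicate 1) and 10 to 11 down in the interaction. Among all genes, the SDE counts without 1 library were 442 to 525 up and 405 to 456 down in BxPC-3-GR. They were 2278 to 2566 up and 1336 to 1511 down in CFPAC-1-GR, and 2212 to 2458 up and 2743 to 3048 down between the parents. In the interaction they were 2745 to 2933 up and 1681 to 1836 down. The cause was not tested.

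These values changed sign. In BxPC-3-GR, where none of these passed the test, MVD was at 0.0072 with median-of-ratios and 0.011 with upper-quartile scaling and between -0.078 and 0.017 without 1 library. CYP51A1 was at 0.036 with the correction (with and without the block), 0.016 and 0.021 with the 2 scalings and between -0.099 and 0.027 without 1 library, and DHCR7 was between -0.038 (without BxPC-3-GR replicate 1) and 0.26. In CFPAC-1-GR the median of the members was -0.053 without the filter, -0.20 with the correction and between -0.13 and 0.17 without 1 library. With the correction, with or without the replicate block, HMGCS1 was at -0.25, SQLE at -0.027, TM7SF2 at 0.13, MSMO1 at -0.23, HSD17B7 at -0.80, SC5D at -0.26, INSIG1 at -0.055, ACACA at -0.20 and SCD at -0.077. Between the parents it gave IDI1 0.39, NSDHL -0.21, INSIG2 0.84, SREBF1 -0.13, STARD4 0.25 and ACSL3 0.57. In the interaction it gave HMGCS1 -0.060, MSMO1 -0.84, HSD17B7 -0.90, SC5D -0.21, INSIG1 -0.26, INSIG2 -0.45, STARD4 -0.17, FADS1 -0.037 and ACSL3 -0.37. There, median-of-ratios scaling gave MSMO1 -0.028, HSD17B7 -0.18, INSIG1 -0.13 and FADS1 -0.091, a pseudocount of 0.1 gave ABCA1 0.033, and without 1 library HSD17B7 was between -0.014 and 0.12 and INSIG1 between -0.019 and 0.30.

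Libraries with the same replicate number did not deviate together (correlations of -0.143 to 0.0959), so the numbers were not taken as pairs. The replicate block alone left 15 members up and 4 down in BxPC-3-GR and 15 up and 16 down in CFPAC-1-GR. Of all genes, it gave 2984 up and 3557 down of 11710 in BxPC-3-GR. In CFPAC-1-GR it gave 5279 up and 4096 down of 12051. With the correction, the replicate block took the members that fell in CFPAC-1-GR from 16 to 12 of 33 tested. The calls of MSMO1, FDPS, NSDHL and SREBF1 were lost. Of all 12030 genes, those that fell went from 3684 to 3441.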
